A study of Mus musculus with 20 samples.

Results

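Brown adipocytes burn fat to make heat, and the genes that let them do so were followed here in the abdominal aorta of 20 mice. The set holds 9 of the 43422 genes in the deposited data, and it was fixed by name: Ucp1, Cox8b, Cox7a1, Cidea, Elovl3, Ppargc1a, Dio2, Prdm16 and Fabp3. Each of the 9 symbols matched exactly 1 Ensembl gene. The mice were C57BL/6 (C57Bl/6NCrl in the study's methods) and fell into 4 groups of 5: wild type (WT) mice given saline, WT mice given angiotensin II (Ang II), Plod1-/- mice given saline and Plod1-/- mice given Ang II. Plod1 encodes lysyl hydroxylase 1, a collagen-modifying enzyme, and both genotypes served to study dissecting abdominal aortic aneurysm. Ang II, a peptide hormone that raises blood pressure, was infused at 1000 ng/kg per minute from pumps under the skin, and the aortas were taken on day 14. The sample labels give an age of 6 months for every mouse, the methods give a younger age at pump implantation, and the methods state that the mice were male. The deletion of Plod1 was constitutive, so it was carried by every cell of the animal.

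Expression is given as FPKM, which scales a gene's sequenced fragments by its transcript length and by the size of the library, with 1 library per mouse. Plod1 ran from 22.8 to 29.7 FPKM in the WT mice and was at most 0.0415 FPKM in the Plod1-/- mice. Xist, a transcript of female cells, had 15.1 FPKM in replicate 5 of the saline-treated and 7.93 FPKM in replicate 1 of the Ang II-treated Plod1-/- mice, whereas the remaining 18 libraries did not exceed 0.0328 FPKM, and where a member's call or the range of Ucp1 changed without these 2 libraries, both values are given. Skeletal muscle RNA was present in Ang II-treated WT replicates 2, 3 and 5, where Acta1, the actin of skeletal muscle, reached 141, 77.2 and 111 FPKM against at most 8.30 FPKM in every other mouse. The 8.30 FPKM was in replicate 4 of the same group, and the next highest mouse, saline-treated Plod1-/- replicate 3, had 3.40 FPKM. Fits that leave out replicates 2, 3 and 5 keep replicate 4. Myh6, a myosin of heart muscle, stood at 44.7 FPKM in saline-treated Plod1-/- replicate 1 and at 22.1 FPKM in saline-treated WT replicate 3. The relative depth of the libraries, read from the steps between the lowest FPKM values, ran from 0.902 to 1.09, and the absolute depth is unknown.

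In a brown adipocyte, noradrenaline from sympathetic nerves acts on the beta-3 adrenergic receptor and raises cyclic AMP. The cell then releases fatty acids from its lipid droplets, oxidises them in its many mitochondria, and lets protons back across the inner membrane through uncoupling protein 1 (UCP1), so that the energy is set free as heat. The fat around the thoracic aorta of mice is known to resemble brown fat, whereas the fat around the abdominal aorta is described as more mixed. The aortic wall itself is built mainly from smooth muscle cells, which are not known for Ucp1.

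The members play different roles. Ucp1 (chromosome 8, 83290352 to 83298452, GRCm38) encodes the uncoupling protein, and Cox8b and Cox7a1 (chromosome 7) encode subunits of cytochrome c oxidase that are used in brown fat and striated muscle. Cidea encodes a lipid droplet protein, Elovl3 (chromosome 19) an enzyme that lengthens fatty acids, and Fabp3 (chromosome 4) a carrier of fatty acids that is also abundant in heart and muscle. Ppargc1a (chromosome 5) and Prdm16 (chromosome 4) encode regulators of transcription, and Dio2 (chromosome 12) encodes the enzyme that turns thyroxine into the active thyroid hormone inside the cell. Prdm16 and Fabp3 lie on the chromosome that holds Plod1. Cidea, Elovl3 and Fabp3 overlap genes on the opposite strand whose highest values were 3.34, 1.07 and 11.0 FPKM, and the library kit does not record the strand.

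Cyclic AMP acts on many promoters through the cAMP response element, a site with the letters TGACGTCA or its shorter core TGACG. RefSeq (GRCm38.p6) promoters of 7 of the 9 members were used, and the 250 bases before the start of transcription were searched on both strands. Cidea and Elovl3 were left out of this search, so the counts of promoters below do not cover them. The upstream sequences of the uncoupling protein gene, of the coactivator gene and of the deiodinase gene are shown because these are the members best known to answer to cyclic AMP. Capitals mark the core, and in Dio2 the full site.
Ucp1, chr8:83290098-83290347, plus strand: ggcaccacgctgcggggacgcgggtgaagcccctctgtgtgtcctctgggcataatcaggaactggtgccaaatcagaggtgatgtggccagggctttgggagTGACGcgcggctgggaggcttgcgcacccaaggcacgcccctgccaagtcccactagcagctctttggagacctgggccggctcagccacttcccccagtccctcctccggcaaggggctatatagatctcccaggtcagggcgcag
Ppargc1a, chr5:51567726-51567975, minus strand: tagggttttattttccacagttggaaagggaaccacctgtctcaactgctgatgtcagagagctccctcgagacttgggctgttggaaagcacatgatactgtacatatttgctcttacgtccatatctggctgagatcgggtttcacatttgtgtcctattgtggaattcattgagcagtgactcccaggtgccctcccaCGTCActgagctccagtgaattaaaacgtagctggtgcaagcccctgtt
Dio2, chr12:90739039-90739288, minus strand: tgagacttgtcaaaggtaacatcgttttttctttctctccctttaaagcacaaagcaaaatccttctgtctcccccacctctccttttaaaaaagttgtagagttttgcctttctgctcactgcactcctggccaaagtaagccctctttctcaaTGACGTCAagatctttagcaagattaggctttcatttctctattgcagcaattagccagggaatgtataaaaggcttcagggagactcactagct
The core began 147 bases before the start in Ucp1, 49 bases before it in Ppargc1a, where it lies on the reverse strand, and 149 bases before it in Fabp3. The full site began 95 bases before the start in Dio2, and it holds the core on both strands, overlapping. The core was present in 4 of the 7 promoters and in 17.9% of 27025 RefSeq promoters, and the full site in 1 of the 7 and in 1.62% of all. Cox8b, Cox7a1 and Prdm16 held neither within these 250 bases.

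Ucp1 had the widest range of FPKM among the 9 members. In the saline-treated WT mice it stood at 8.77, 4.68, 79.3, 0.955 and 159.9 FPKM, in the order of replicates 1 to 5. In the Ang II-treated WT mice it stood at 1356, 1879, 1317, 208 and 1201 FPKM. Every Ang II-treated WT mouse was above every saline-treated WT mouse, and replicate 4 lay far below the other 4 of its group. The saline-treated Plod1-/- mice had 219.8, 621, 75.4, 12.9 and 3.18 FPKM of Ucp1, and the Ang II-treated Plod1-/- mice 36.6, 126, 66.5, 80.2 and 165 FPKM. The range of the Ang II-treated Plod1-/- mice lay inside that of the saline-treated Plod1-/- mice and wholly below that of the Ang II-treated WT mice.

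**Figure D1:**
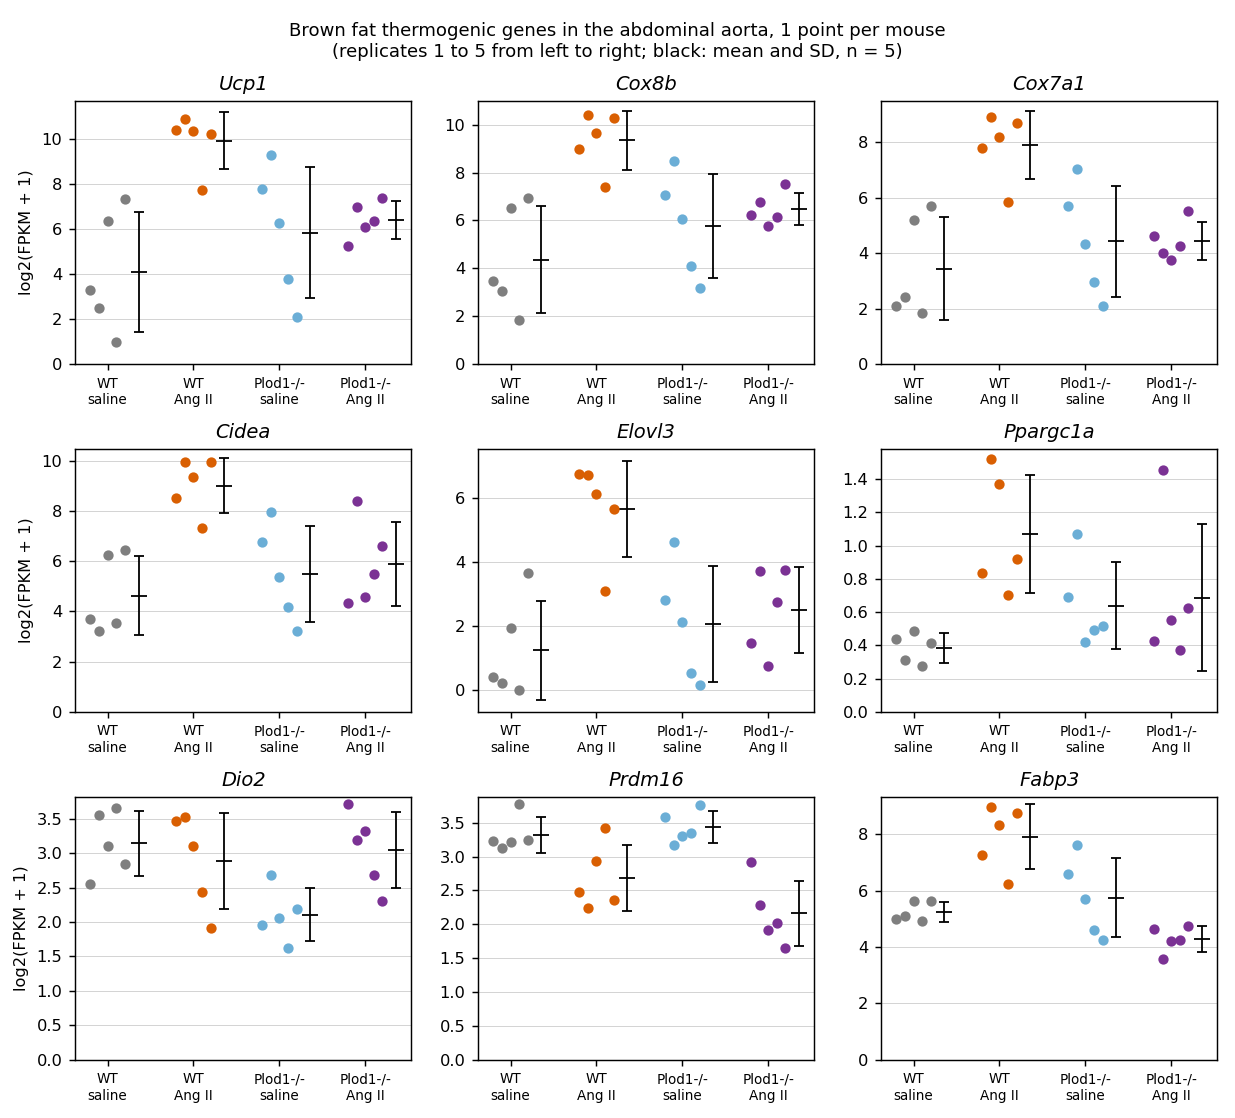
Expression of the 9 thermogenic genes as log2(FPKM + 1) (y axis) in the 4 groups (x axis), 1 point per mouse with the mean and SD in black (n = 5). Ucp1, Cox8b, Cox7a1, Cidea, Elovl3 and Fabp3 are high in the Ang II-treated WT mice, whereas Dio2 and Prdm16 are not.

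The cytochrome c oxidase subunits followed the uncoupling protein closely, Cox7a1 less so among the Ang II-treated Plod1-/- mice. Cox8b stood at 10.2, 7.29, 91.3, 2.58 and 122 FPKM in saline-treated WT mice and at 506, 1378, 795, 169 and 1229.5 FPKM in Ang II-treated WT mice. In the Plod1-/- mice it stood at 133, 363, 66.4, 16.2 and 7.93 FPKM under saline and at 73.4, 109, 53.3, 68.9 and 183 FPKM under Ang II. The WT groups did not overlap for Cox8b, and 1 Ang II-treated Plod1-/- mouse, replicate 5, exceeded the lowest Ang II-treated WT mouse. Cox7a1 stood at 3.25, 4.28, 35.5, 2.57 and 51.0 FPKM in saline-treated WT mice and at 221, 485, 294, 56.3 and 414 FPKM in Ang II-treated WT mice. It stood at 51.5, 130.5, 19.1, 6.75 and 3.27 FPKM in saline-treated Plod1-/- mice and at 23.4, 14.9, 12.4, 18.3 and 44.7 FPKM in Ang II-treated Plod1-/- mice. For Cox7a1 the Ang II-treated WT mice lay above every mouse of the saline-treated WT and of the Ang II-treated Plod1-/- group.

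Cidea and Elovl3, both genes of lipid handling, also had their highest values in Ang II-treated WT mice, and for both the Ang II-treated groups overlapped. Cidea stood at 11.9, 8.29, 74.2, 10.4 and 85.3 FPKM in saline-treated WT mice and at 359.7, 972, 659, 159 and 977 FPKM in Ang II-treated WT mice, and the 2 groups did not overlap. In the Plod1-/- mice Cidea stood at 106, 247, 40.2, 17.0 and 8.21 FPKM under saline and at 19.3, 337, 22.7, 44.2 and 96.7 FPKM under Ang II. Replicate 2 of the last group was far above its 4 companions and within the range of the Ang II-treated WT mice.

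Elovl3 was lower in level than the members above. It stood at 0.340, 0.173, 2.81, 0 and 11.6 FPKM in saline-treated WT mice and at 105, 102, 67.7, 7.60 and 49.2 FPKM in Ang II-treated WT mice. Replicate 4 of the Ang II-treated WT mice fell within the range of the saline-treated WT mice, so these groups overlapped. Elovl3 stood at 6.04, 23.6, 3.34, 0.469 and 0.119 FPKM in saline-treated Plod1-/- mice and at 1.78, 12.2, 0.706, 5.74 and 12.5 FPKM in Ang II-treated Plod1-/- mice. The range of the Ang II-treated Plod1-/- mice lay inside that of the saline-treated ones.

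Fabp3 had a higher floor than the other members. It stood at 30.6, 33.1, 48.3, 29.6 and 48.2 FPKM in saline-treated WT mice and at 154, 507, 321, 74.8 and 437 FPKM in Ang II-treated WT mice. In the Plod1-/- mice it stood at 94.8, 198, 50.8, 23.4 and 17.8 FPKM under saline and at 24.0, 11.0, 17.7, 18.1 and 26.1 FPKM under Ang II. Every Ang II-treated Plod1-/- mouse was below every WT mouse of either treatment.

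Ppargc1a, Dio2 and Prdm16 did not exceed 12.7 FPKM in any mouse. Ppargc1a was near the limit of use, with 4 of 20 mice at or above 1 FPKM. It stood at 0.357, 0.241, 0.403, 0.209 and 0.333 FPKM in saline-treated WT mice, at 0.782, 1.87, 1.58, 0.629 and 0.890 FPKM in Ang II-treated WT mice, at 0.612, 1.10, 0.341, 0.404 and 0.433 FPKM in saline-treated Plod1-/- mice and at 0.344, 1.74, 0.469, 0.294 and 0.543 FPKM in Ang II-treated Plod1-/- mice. The WT groups did not overlap, and replicate 2 stood apart from the rest of the Ang II-treated Plod1-/- group.

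Dio2 stood at 4.86, 10.7, 7.61, 11.6 and 6.17 FPKM in saline-treated WT mice and at 10.1, 10.6, 7.57, 4.42 and 2.78 FPKM in Ang II-treated WT mice. It stood at 2.89, 5.42, 3.15, 2.09 and 3.56 FPKM in saline-treated Plod1-/- mice and at 12.2, 8.13, 8.99, 5.43 and 3.93 FPKM in Ang II-treated Plod1-/- mice. Every pair of groups overlapped for Dio2, and the saline-treated Plod1-/- mice were mostly at the low end.

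Prdm16 stood at 8.42, 7.72, 8.30, 12.7 and 8.46 FPKM in saline-treated WT mice and at 4.59, 3.71, 6.62, 9.73 and 4.11 FPKM in Ang II-treated WT mice. It stood at 11.0, 8.02, 8.88, 9.20 and 12.6 FPKM in saline-treated Plod1-/- mice and at 6.54, 3.89, 2.78, 3.05 and 2.15 FPKM in Ang II-treated Plod1-/- mice. The Plod1-/- groups did not overlap, with the Ang II-treated mice lower. Within the Ang II-treated WT group, the mouse with the lowest Ucp1 had the highest Prdm16.

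The question of how far brown fat RNA varied between mice of 1 group was answered by the spread on the log2(FPKM + 1) scale. The SD of Ucp1 was 2.67 in saline-treated WT mice, 1.26 in Ang II-treated WT mice, 2.93 in saline-treated Plod1-/- mice and 0.83 in Ang II-treated Plod1-/- mice (n = 5 each). The median SD over 13263 genes with at least 1 FPKM in at least 5 mice was 0.19, 0.27, 0.16 and 0.28 in the same groups. The highest mouse had 167 times the Ucp1 of the lowest in the saline-treated WT group and 195 times in the saline-treated Plod1-/- group, against 9.03 times and 4.50 times in the respective Ang II-treated groups. Each of these ratios rested on the lowest mouse. With that mouse left out they were 34.2 in saline-treated WT mice (replicate 4), 48.3 in saline-treated Plod1-/- mice (replicate 5, an Xist library), 1.56 in Ang II-treated WT mice (replicate 4) and 2.47 in Ang II-treated Plod1-/- mice (replicate 1, an Xist library). The SD of Ucp1 was 0.28 in Ang II-treated WT mice without replicate 4 and 2.34 in saline-treated Plod1-/- mice without replicate 5. Whether the spread itself differed between groups was not tested.

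Cox8b, Cox7a1, Cidea and Elovl3 were also among the more variable genes, with an SD above that of at least 98.9% of genes in each group but the Ang II-treated Plod1-/- group. In that group the SD was 0.69 for both Cox8b and Cox7a1, above that of 88.9% of genes, whereas Cidea had an SD of 1.67 and Elovl3 of 1.34. The SD of Prdm16 stayed between 0.24 and 0.49 and that of Dio2 between 0.38 and 0.70. Smooth muscle actin Acta2 had an SD of 0.22 and 0.19 in the saline-treated WT and Plod1-/- mice and of 0.60 and 1.10 in the Ang II-treated ones.

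**Figure D2:**
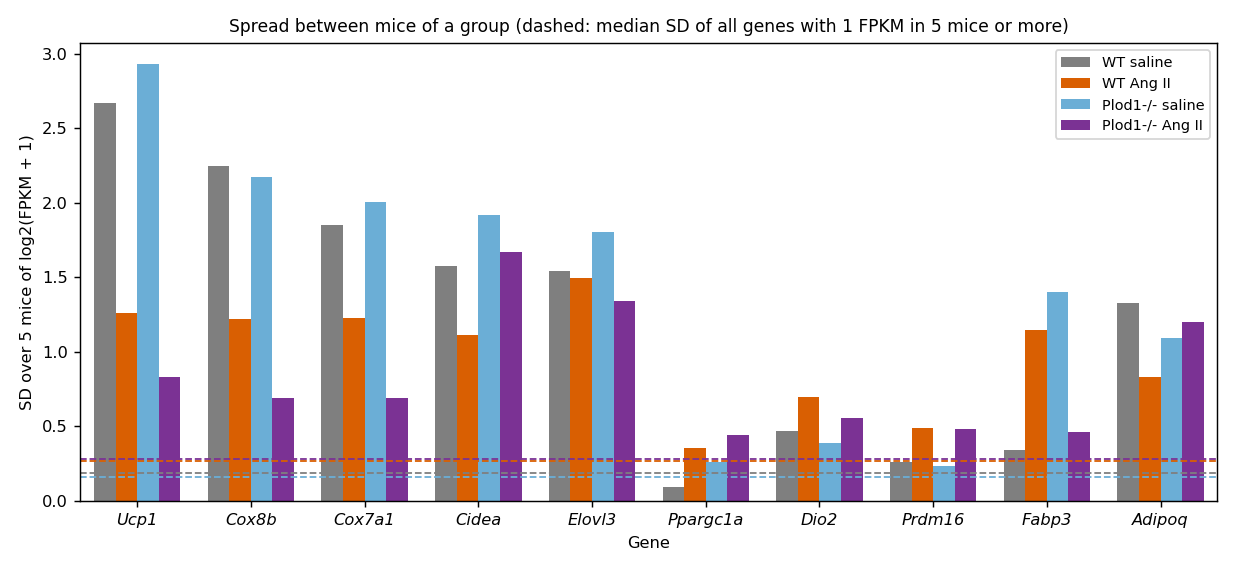
SD over the 5 mice of a group of log2(FPKM + 1) (y axis) for each thermogenic gene and Adipoq (x axis), with bars coloured by group and dashed lines at the median SD of all 13263 genes of that group. The bars of Ucp1, Cox8b and Cox7a1 are tallest in the saline-treated groups, and Ppargc1a in saline-treated WT mice is the one bar of a thermogenic gene below its dashed line.

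The same mice were extreme for most members, except for the lowest mouse of the Ang II-treated Plod1-/- group. In saline-treated Plod1-/- mice, replicate 2 had the highest Ucp1 and also the highest value of 7 of the other 8 members, all but Prdm16, and replicate 5 had the lowest Ucp1, Cox8b, Cox7a1, Cidea, Elovl3 and Fabp3. In Ang II-treated WT mice, replicate 4 had the lowest Ucp1 and the lowest value of 6 of the other 8 members. In saline-treated WT mice, replicate 4 was lowest for Ucp1 and 5 other members, whereas replicate 1 was lowest for Ucp1 and Cidea among the Ang II-treated Plod1-/- mice. Of the saline-treated Plod1-/- mice, replicate 1, which held heart RNA, ranked next below replicate 2 for Ucp1, and replicate 5, the lowest, held Xist RNA.

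**Figure D3:**
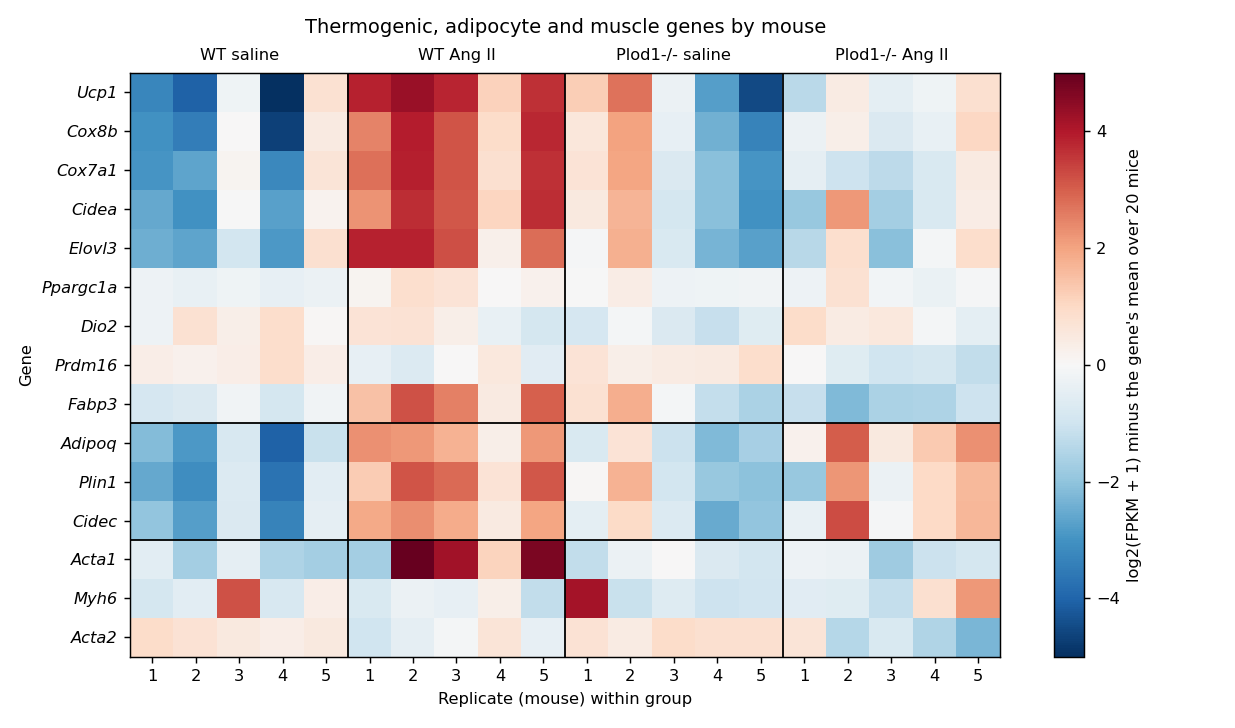
Heat map of log2(FPKM + 1) minus each gene's mean over the 20 mice (colour) for the thermogenic genes, 3 adipocyte genes and 3 muscle genes (rows) in each mouse (columns, by group and replicate). The first 5 rows and Fabp3 change together in most mice, and Acta1 is high in Ang II-treated WT replicates 2, 3 and 5. Among the Ang II-treated Plod1-/- mice, replicate 2 has the highest Cidea, at 337 FPKM, and the lowest Fabp3, at 11.0 FPKM.

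Across the 20 mice the members split into those that followed Ucp1 and those that did not. With group means taken off, Pearson's r with Ucp1 was 0.97 for Cox8b, 0.94 for Cox7a1, 0.89 for Elovl3, 0.88 for Cidea, 0.75 for Fabp3 and 0.47 for Ppargc1a. It was -0.02 for Dio2 and -0.51 for Prdm16. The median over the 13263 genes was -0.03. These values describe 20 mice whose libraries also share any difference in the tissue sampled, and no p-value is attached to them. Ucp1 had SDs of 2.67 and 2.93 in the saline-treated WT and Plod1-/- mice and of 1.26 and 0.83 in the Ang II-treated ones. The saline-treated mice therefore weigh most in these r values, and r was not taken within single groups.

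Outside the set, Gpd1, the glycerol phosphate dehydrogenase that links glycolysis to lipid synthesis, was most like Ucp1 on both measures, with r of 0.97 over the 20 mice and 0.93 with group means taken off. The first 10 genes over the 20 mice were Gpd1, Dgat2, Clstn3, Plin5, Scd1, Prkar2b, Pck1, Ucp3, Otop1 and Acaa2, with r down to 0.94. With group means taken off they were Gpd1, Apoc1, Prkar2b, Slc36a2, Ucp3, Otop1, Dgat2, Clstn3, Plin5 and Scd1, with r down to 0.88, and 8 genes were in both sets of 10. Prkar2b encodes a regulatory subunit of the cAMP-dependent kinase, Plin5 a lipid droplet protein and Dgat2 an enzyme of triglyceride synthesis.

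The lists of related genes were ranked in the same way by their median r with Ucp1, group means taken off. It was 0.77 for 15 genes of fatty acid oxidation, 0.77 for 13 genes of adipocytes of every kind, 0.72 for 18 nuclear genes of the respiratory chain and 0.61 for 27 other brown adipocyte genes. It was 0.22 for the 13 mitochondrially encoded genes, 0.16 for 17 striated muscle genes, -0.01 for 7 white adipocyte genes and -0.34 for 8 smooth muscle genes. Within the brown adipocyte list Zic1, a marker of classical brown fat of the shoulder region, did not exceed 0.108 FPKM in any mouse. In the same list Ebf2 and Lhx8 reached 2.43 and 2.26 FPKM, whereas Tmem26 and Cited1 did not exceed 0.511 and 0.880 FPKM. The kind of thermogenic fat was not tested.

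The effect of Ang II in WT mice was asked first. Ucp1 rose by 5.83 on the log2 scale of FPKM + 1 (SE 1.10, adjusted p = 0.00383), Cox8b by 4.98 (SE 0.96, adjusted p = 0.00415), Cox7a1 by 4.45 (SE 0.83, adjusted p = 0.00364) and Cidea by 4.39 (SE 0.72, adjusted p = 0.00224). Elovl3 rose by 4.41 (SE 0.81, adjusted p = 0.0033) and Fabp3 by 2.67 (SE 0.45, adjusted p = 0.00246). These are limma p-values adjusted by Benjamini-Hochberg over all genes tested, and a gene was called where the adjusted p was under 0.05 and the change over 1 in size. So 6 of the 9 members were called higher, 8 having been tested, against 6.38% of 11994 genes. Ucp1, Cox8b, Cox7a1, Cidea, Fabp3 and Ppargc1a were higher under Ang II without overlap of the groups, which 10.4% of tested genes also were.

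Prdm16 had a log2 fold change of -0.63 (SE 0.22, adjusted p = 0.042), which missed the size threshold, and Dio2 one of -0.25 (SE 0.32, adjusted p = 0.545). Ppargc1a, below the expression filter, differed by 0.68 in mean log2(FPKM + 1), higher under Ang II, with an exact two-sided permutation p of 0.00794, the smallest that 5 against 5 mice allow. With the 3 mice that held skeletal muscle RNA left out, a choice made after seeing the data that leaves 2 Ang II-treated mice, Ucp1 was still higher by 4.97 on the log2 scale (adjusted p = 0.196), and by limma 0 of 7 tested members were called, 5 of them with an unadjusted p under 0.05. The part of muscle RNA in the values of Cox8b, Cox7a1 and Fabp3, which muscle also uses, was not tested. The 2 Ang II-treated WT mice kept, replicates 1 and 4, had 0.336 and 8.30 FPKM of Acta1. In this fit, and in the same fit between genotypes under Ang II, no tested gene of any list was called. The share of all genes called in these fits was not counted, so the counts of 0 do not set the members apart.

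The wider thermogenic programme changed with the members in WT mice. Of 27 other brown adipocyte genes 15 were tested, 14 were higher and 12 were called higher. The median log2 fold change was 2.43, against -0.14 over all tested genes. A gene can pass the expression filter through the Ang II-treated mice alone, so these counts partly reflect the filter. Of the 27 genes, 14 reached 1 FPKM in all Ang II-treated WT mice and 6 in all saline-treated WT mice. The called genes included Slc36a2, an amino acid transporter, at 4.34 (SE 0.69, adjusted p = 0.00206) and Adrb3, the beta-3 adrenergic receptor, at 4.33 (SE 0.62, adjusted p = 0.00181). All 15 genes of fatty acid oxidation rose, led by Acaa2 at 2.92 and Hadhb at 2.88, which encode enzymes of the last steps of the cycle. All 18 nuclear genes of the respiratory chain were higher and 17 were called, led by Uqcrfs1 at 2.16 and Sdha at 2.03. All 13 mitochondrially encoded genes were higher and 11 were called, with a median of 1.26. With quantile normalization 5 of these 13 were called, with a median of 0.96. Mitochondrial transcripts made up 14.6% to 29.1% of all FPKM in the Ang II-treated WT mice and 8.37% to 14.6% in the saline-treated ones.

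Genes of adipocytes of every kind rose as well. Of 13 such genes 12 were tested and 11 rose, with a median of 3.29. Plin1, which coats the lipid droplet, rose by 4.32 (SE 0.69, adjusted p = 0.00206), and Adipoq, the adipocyte hormone adiponectin, rose by 3.92 (SE 0.59, adjusted p = 0.00188). Of 7 white adipocyte genes 6 were tested, Retn rose by 2.76 and Tcf21 fell by 1.14. All 8 smooth muscle genes were lower and 3 were called, with a median of -0.89. With mitochondrial genes left out and the rest rescaled, 1 of these 8 was called, with a median of -0.85. Without the 3 mice that held muscle RNA limma called 0 of these 8, 4 of them at an unadjusted p under 0.05, with a median of -0.81. With the 3 mice that held muscle RNA left out, limma called 0 of 7 tested brown adipocyte genes, 0 of 14 genes of fatty acid oxidation and 0 of 12 of adipocytes of every kind, with 6, 14 and 11 at an unadjusted p under 0.05 and medians of 1.57, 1.70 and 2.69. In the same fit limma called 0 of 18 nuclear respiratory chain genes and 0 of 13 mitochondrially encoded genes, with 17 and 5 at an unadjusted p under 0.05 and medians of 1.02 and 0.75. In whole tissue, fewer cells of a type and less RNA per cell cannot be told apart.

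The same question was put to the Plod1-/- mice. Ucp1 had a log2 fold change of 0.57 (SE 1.19, adjusted p = 0.727), Cox8b one of 0.70 (SE 0.89, adjusted p = 0.553), Cidea one of 0.40 (SE 0.99, adjusted p = 0.773) and Elovl3 one of 0.44 (SE 0.88, adjusted p = 0.712). The change of Cox7a1 was below 0.01 in size, with an SE of 0.83. Fabp3 had a log2 fold change of -1.46 (SE 0.58), with an adjusted p of 0.0632. Without the pair of Xist-bearing libraries, Fabp3 fell by 1.93 (adjusted p = 0.0241) and Ucp1 had a log2 fold change of -0.08 (adjusted p = 0.953).

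Prdm16 was the 1 member called in this comparison, where 13.9% of 12333 genes were called. It fell by 1.28 (SE 0.22, adjusted p = 0.00105), and it was also the 1 member whose groups did not overlap, against 29.2% of genes. Dio2 was higher by 0.94 (SE 0.27, adjusted p = 0.0169), which missed the size threshold. Ppargc1a differed by 0.05 (exact permutation p = 0.825).

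The lists around the members were counted in the same mice, and the difference between lists was not tested. Of 12 tested genes of adipocytes of every kind 11 were higher and 5 were called, against 1034 of 12333 genes called higher. Among the called were Adipoq at 2.47 (SE 0.64, adjusted p = 0.00983) and Cfd, which encodes adipsin, at 2.41 (SE 0.59, adjusted p = 0.00727). The median was 1.49, against 0.05 over all genes. Of 15 tested brown adipocyte genes 10 were higher, and the median was 0.40. Epsti1 was called higher, by 1.85, and Acot11 was called lower, by 1.37. With group means taken off, Epsti1 had an r with Ucp1 of 0.18 and Acot11 one of 0.49. By limma 0 of 15 genes of fatty acid oxidation and 0 of 18 nuclear respiratory chain genes were called, with 1 and 0 at an unadjusted p under 0.05 and medians of 0.23 and 0.15. Smooth muscle genes were lower, with 6 of 8 called and a median of -1.73, and all 5 macrophage genes rose, with a median of 2.71.

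**Figure D4:**
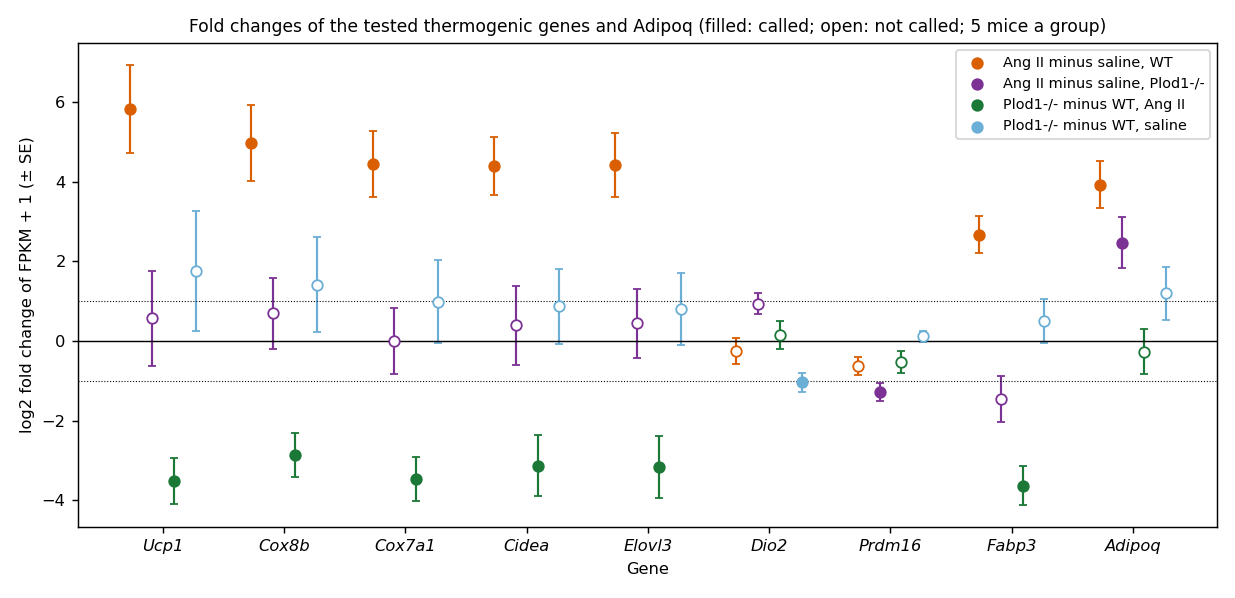
Log2 fold change of FPKM + 1 with its SE (y axis) for the 8 tested thermogenic genes and Adipoq (x axis) in 4 comparisons of 5 against 5 mice; filled points were called and open points were not. Adipoq is called higher under Ang II in both genotypes, whereas Ucp1 is called higher in WT mice, at 5.83, and not in Plod1-/- mice, at 0.57.

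Whether the response to Ang II differed between genotypes was tested as an interaction over all 20 mice. The response in Plod1-/- mice minus that in WT mice was -5.27 for Ucp1 on the log2 scale (SE 1.74, adjusted p = 0.0233), -4.45 for Cox7a1 (SE 1.26, adjusted p = 0.0104) and -4.13 for Fabp3 (SE 0.78, adjusted p = 0.000782). Cox8b, Cidea and Elovl3 differed by -4.28, -4.00 and -3.97, with adjusted p of 0.0228, 0.0226 and 0.0205. So 6 of the 9 members were called lower, against 6.36% of 13263 genes. Dio2 was called in the other direction, at 1.19 (SE 0.45, adjusted p = 0.0431), against 9.69% of genes called higher. That call was lost with the Xist libraries left out (adjusted p = 0.0834), with quantile normalization (0.0923), with mitochondrial genes left out (0.0587), with no filter on low values (0.105) and with the muscle-RNA mice left out (0.12). It was also lost without any 1 of 13 of the 20 mice, namely saline-treated WT replicates 2, 3 and 4, Ang II-treated WT replicates 3, 4 and 5, saline-treated Plod1-/- replicates 1, 3, 4 and 5 and Ang II-treated Plod1-/- replicates 1, 2 and 3 (adjusted p at most 0.0836). Prdm16 had an interaction of -0.64 (SE 0.32, adjusted p = 0.125).

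The interaction of Adipoq was -1.46 (SE 0.93, adjusted p = 0.222). Of the 13 adipocyte genes 2 were called, Plin1 at -3.19 (adjusted p = 0.0423) and Pnpla2, the lipase that opens the lipid droplet, at -2.02 (adjusted p = 0.0388), and the median was -1.52. All 15 genes of fatty acid oxidation were called lower, with a median of -2.18, and 17 of 18 nuclear respiratory chain genes, with a median of -1.47, against 0.12 over all tested genes. Of 21 tested brown adipocyte genes 10 were called lower, led by Adrb3 at -3.74 and Otop1, a proton channel, at -3.61. With the 3 Ang II-treated WT mice that held muscle RNA left out, 1 member, Fabp3, was called, and with no filter on low values 2 members were called. Without those 3 mice limma called 0 of 15 genes of fatty acid oxidation and 0 of 18 nuclear respiratory chain genes, with 8 and 7 at an unadjusted p under 0.05 and medians of -1.42 and -0.88, and it called 2 of 17 tested brown adipocyte genes and 0 of 12 tested adipocyte genes, the latter with 0 at an unadjusted p under 0.05.

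The comparison of genotypes under Ang II shares its mice with those above and gives each member's own contrast. Plod1-/- against WT mice, Ucp1 had a log2 fold change of -3.52 (SE 0.59, adjusted p = 0.00305), Fabp3 one of -3.63 (SE 0.48, adjusted p = 0.00135) and Cox7a1 one of -3.47 (SE 0.55, adjusted p = 0.00234). Elovl3, Cidea and Cox8b had log2 fold changes of -3.16, -3.13 and -2.86, with adjusted p of 0.0126, 0.0135 and 0.00514. The call was reached by 6 of the 9 members, all lower, against 3.67% of 12356 genes called lower. Ucp1, Cox7a1 and Fabp3 did not overlap between the groups, which 4.62% of genes did in that direction. With both Xist libraries left out 6 members were again called, and with the 3 mice that held muscle RNA left out Ucp1 was at -2.66 (adjusted p = 0.173), and by limma 0 of 8 tested members were called, 4 of them with an unadjusted p under 0.05.

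Dio2 and Prdm16 had log2 fold changes of 0.15 (SE 0.35, adjusted p = 0.767) and -0.53 (SE 0.28, adjusted p = 0.165), and Ppargc1a differed by -0.38 (exact permutation p = 0.159). Adipoq had a log2 fold change of -0.26 (SE 0.57, adjusted p = 0.747), and 0 of 13 adipocyte genes were called, with a median of -0.60. By limma's unadjusted p, 3 of these 13 were under 0.05. All 15 genes of fatty acid oxidation and all 18 nuclear respiratory chain genes were lower, with medians of -1.69 and -1.24. Of these 14 and 17 were called. Of 20 tested brown adipocyte genes 10 were called lower, led by Otop1 at -2.92 (SE 0.55, adjusted p = 0.00475) and Adrb3 at -2.85 (SE 0.65, adjusted p = 0.00965). In this list 3 genes were higher, and Epsti1 was called higher, by 1.41. With the 3 mice that held muscle RNA left out, limma called 0 of 15 genes of fatty acid oxidation, 0 of 18 nuclear respiratory chain genes and 0 of 15 tested brown adipocyte genes, with 4, 2 and 5 at an unadjusted p under 0.05 and medians of -1.02, -0.63 and -0.96.

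Between genotypes under saline, 1 member was called, against 0.767% of 11999 genes. Dio2 had a log2 fold change of -1.04, lower in Plod1-/- mice (SE 0.24, adjusted p = 0.0329). The call was lost with the Xist library of this comparison left out (adjusted p = 0.0648) and without any 1 of 7 of the 10 mice, namely saline-treated Plod1-/- replicates 1, 3, 4 and 5 and saline-treated WT replicates 2, 3 and 4 (adjusted p at most 0.075). Ucp1 had a log2 fold change of 1.75 (SE 1.51, adjusted p = 0.478), Cox8b one of 1.41 (SE 1.19, adjusted p = 0.469) and Cox7a1 one of 0.98 (SE 1.04, adjusted p = 0.568). With SDs of Ucp1 above 2.6 in both groups, differences of this size lay within the spread between mice. Ppargc1a was higher by 0.25 (exact permutation p = 0.0317), and the p was above 0.05 with mitochondrial genes left out (exact p = 0.0635) and without any 1 of 6 of the 10 mice, namely saline-treated Plod1-/- replicate 2 and each saline-treated WT mouse (exact p up to 0.127). The groups overlapped for all 9 members, whereas they did not for 9.52% of tested genes.

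Ucp1 was then set against Adipoq in the same library, because Adipoq is made by adipocytes of every kind. The ratio of their FPKM was 0.559, 0.514, 1.87, 0.269 and 4.71 in saline-treated WT mice, and under Ang II it was 3.71, 5.66, 5.24, 2.30 and 3.62 in WT mice. In the Plod1-/- mice it was 5.15, 5.21, 2.18, 0.837 and 0.140 under saline and 0.431, 0.206, 0.648, 0.430 and 0.448 under Ang II. All 5 Ang II-treated Plod1-/- mice were below all 5 Ang II-treated WT mice, and the ratio of saline-treated mice spread over the ranges of both.

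**Figure D5:**
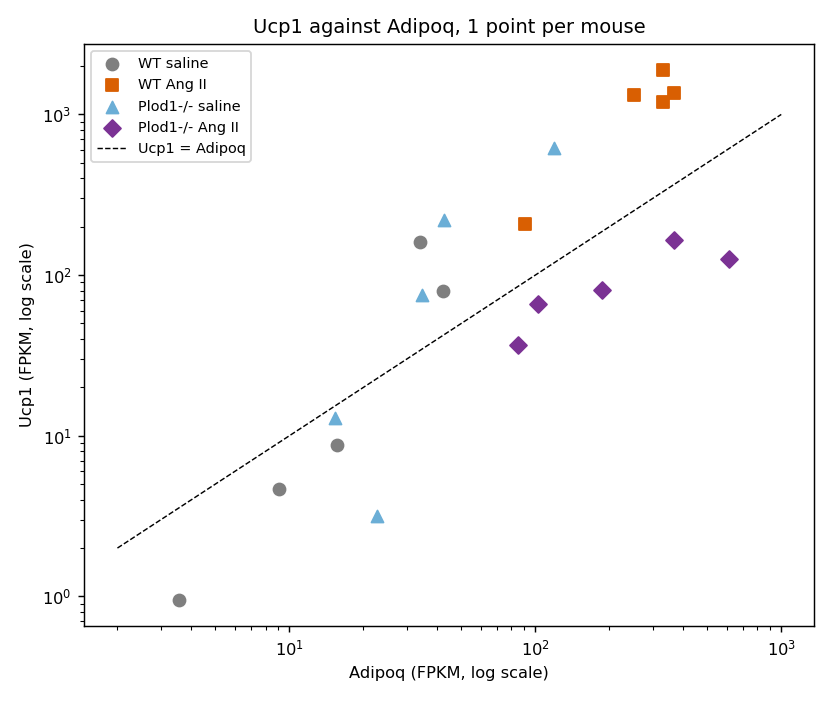
Ucp1 (y axis) against Adipoq (x axis) in FPKM on log scales, 1 point per mouse, with a dashed line where both are equal. The Ang II-treated WT mice lie above the line and the Ang II-treated Plod1-/- mice below it, over overlapping ranges of Adipoq of 90.7 to 366 and 84.9 to 611 FPKM.

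On the log2 scale, each with 1 FPKM added, the difference between the Ang II-treated groups was -3.25 (exact two-sided permutation p = 0.00794, adjusted over 4 comparisons 0.0317). It was 1.91 for Ang II against saline in WT mice (exact permutation p = 0.0476, adjusted 0.0952), -1.90 in Plod1-/- mice (exact permutation p = 0.0952, adjusted 0.127) and 0.56 for Plod1-/- against WT mice under saline (exact permutation p = 0.627, adjusted 0.627). With the 3 mice that held muscle RNA left out, the difference between the Ang II-treated groups was -2.83, with an exact p of 0.0476, the smallest that 2 against 5 mice allow, and an adjusted p of 0.19, so this test could not pass the threshold. Other cell types also moved between these groups: the summed FPKM of 5 macrophage genes was 36.8 to 200.1 in Ang II-treated WT mice and 84.1 to 569 in Ang II-treated Plod1-/- mice, and that of 8 smooth muscle genes 5532 to 17074 and 2327 to 16992. Th and Dbh, enzymes of noradrenaline synthesis, reached 81.4 and 198 FPKM in Ang II-treated Plod1-/- mice, where the summed FPKM of 4 sympathetic neuron genes ran from 1.07 to 315 against 0.337 to 4.48 in Ang II-treated WT mice. The part of these cell types in the ratio was not tested.

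The paralogues of the members showed which form of a shared function was present. Cox8b made up 38.7%, 50.1%, 44.7%, 27.8% and 44.7% of the FPKM of Cox8b and Cox8a in Ang II-treated WT mice and 0.771% to 25.3% in saline-treated WT mice. In the Plod1-/- mice the share was 2.28% to 38.2% under saline and 12.0% to 34.7% under Ang II. The share was thus highest in the Ang II-treated WT mice by median, at 44.7% against 2.78%, 12.6% and 16.0%, and the ranges overlapped except between the WT groups.

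Cox7a1 made up 38.9% to 67.8% of the FPKM of Cox7a1 and Cox7a2 in Ang II-treated WT mice, 3.05% to 42.4% in saline-treated WT mice, 4.32% to 53.1% in saline-treated Plod1-/- mice and 11.1% to 35.3% in Ang II-treated Plod1-/- mice. Cox8a and Cox7a2, the forms used in most tissues, rose in WT mice by 1.41 and 1.09 on the log2 scale, less than Cox8b and Cox7a1. Among the uncoupling proteins, Ucp1 made up 91.4% to 97.5% of the FPKM of Ucp1, Ucp2 and Ucp3 in Ang II-treated WT mice and 34.1% to 72.8% in Ang II-treated Plod1-/- mice. The saline-treated WT mice had 5.36% to 89.2% and the saline-treated Plod1-/- mice 30.7% to 95.7%. Ucp2, a relative found in many cells including macrophages, was higher in Plod1-/- than in WT mice under Ang II by 1.44 (SE 0.39, adjusted p = 0.0189), and Ucp3 had a log2 fold change of -2.33 (SE 0.47, adjusted p = 0.00632). Without the 3 mice that held muscle RNA, limma called 0 of 10 tested relatives of the members in this comparison. Of these, 3 had an unadjusted p under 0.05, and the median was -0.25 against -0.79 with all mice.

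Fabp3 and Fabp4, the carrier of adipocytes, changed their balance between the Ang II-treated groups. Fabp3 made up 12.7% to 29.1% of their summed FPKM in Ang II-treated WT mice and 1.06% to 9.29% in Ang II-treated Plod1-/- mice, and these ranges did not overlap. Ang II-treated WT replicates 2, 3 and 5, which held muscle RNA, had 29.1%, 28.5% and 26.1%, and replicates 1 and 4 had 12.7% and 22.2%. The part of muscle RNA in this share was not tested. The saline-treated WT and Plod1-/- mice had shares of 20.1% to 41.9% and 15.0% to 36.8%. Of the fatty acid elongases, Elovl6 followed Elovl3, with a log2 fold change of 3.62 (SE 0.51, adjusted p = 0.00181) under Ang II in WT mice and of -2.96 (SE 0.43, adjusted p = 0.00183) for Plod1-/- against WT mice under Ang II.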

How the data were processed

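RNA from the abdominal aortas of 20 mice was sequenced, and the labels gave each mouse its group and number. Ribosomal reads were removed by the authors, who aligned with HISAT2 and quantified with stringtie, cuffquant and cuffnorm; the submitters' processing notes also name HISAT2 2.1.0, Bowtie2 2.2.3, HTSeq 0.6.0 and the build mm10. The deposited values are FPKM, normalized between libraries by cuffnorm, for 43422 genes, of which 43226 have a symbol in GENCODE mouse release 21. A single FPKM scale cannot show a change in total RNA per sample, and closely related transcripts may share reads.

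The FPKM were taken as log2(FPKM + 1) and fitted with limma 3.58.1 in R 4.3.3 (eBayes with a variance trend), on genes with at least 1 FPKM in at least 5 mice of a comparison. A group of 5 mice can meet this filter alone. For lists that hold low genes, the counts of higher or lower genes therefore partly reflect the filter. Calls required a Benjamini-Hochberg adjusted p under 0.05 and a log2 fold change over 1 in size. Genes below the filter and the ratio of Ucp1 to Adipoq were compared by exact two-sided permutation. A fold change on this scale understates the change of genes of low level. Genes named beside the members are those most like Ucp1 and, from each list, up to 2 with the largest called rise and 2 with the largest called fall. Acta1, Myh6, Xist, Zic1, Ebf2, Lhx8, Tmem26, Cited1 and the paralogues in shares were singled out after their values were seen. The members, lists and tests were chosen with earlier results of these data known. Simulated data with 200 altered genes served to test the fit. The replicate numbers do not pair mice across groups.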

Additional observations from a re-analysis of the deposited data

Results flagged for a closer look

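Mice that stood far from the rest of their group were sought in 40 sets of 5 mice, the 9 members and the ratio of Ucp1 to Adipoq in 4 groups each, by the gap to the nearest mouse over the whole range on the log2 scale. Chance flags about 1 in 20 such sets, and 3 of 40 passed the critical value of 0.71. For Ucp1, Ang II-treated WT replicate 4 was the lowest with a gap of 0.796 of the range. For Ppargc1a, Ang II-treated Plod1-/- replicate 2 was the highest with a gap of 0.765. For Prdm16, saline-treated WT replicate 4 was the highest with a gap of 0.822.

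For 7 members the response to Ang II differed between the genotypes by the interaction test, in which 2129 of 13263 genes were called. The response in Plod1-/- minus that in WT mice was -5.27 for Ucp1, -4.28 for Cox8b, -4.45 for Cox7a1, -4.00 for Cidea, -3.97 for Elovl3, -4.13 for Fabp3 and 1.19 for Dio2 on the log2 scale. The call of Dio2 was lost under 5 of 8 other settings and in 13 of 20 fits without 1 mouse. The calls of Ucp1, Cox8b, Cidea and Elovl3 held under 6 of the 8 settings, that of Cox7a1 under 7 and that of Fabp3 under all 8. With the 3 mice that held muscle RNA left out, 1 member was called.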

How the results depend on the processing

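In WT mice under Ang II, 6 members were called under 7 other settings (0.1 as the pseudocount, no expression filter, all 4 groups in one fit, quantile normalization, weights per mouse, mitochondrial genes left out and the replicate block) and with any 1 mouse left out. With the 3 mice that held skeletal muscle RNA left out, chosen after seeing the data, the counts were 0 in WT mice under Ang II, 0 between genotypes under Ang II and 1 for the interaction, and Ucp1 relative to Adipoq differed by -2.83 between the Ang II-treated groups (adjusted p = 0.19, the smallest such a test allows); these fits hold 2 Ang II-treated WT mice. In the first 2 of these fits no tested gene of any list was called, so the counts of 0 are not particular to the members. The interaction count was 2 with no filter, and 6 to 7 without each mouse in turn. In Plod1-/- mice under Ang II the count was 2 with a pseudocount of 0.1, with all groups in one fit, with quantile normalization and with the Xist libraries left out, and 1 to 2 without each mouse. The added member was Dio2 or Fabp3. Under saline the single call of Dio2 gave a count of 0 with no filter, with all groups in one fit, with the replicate block and with the Xist libraries left out, and 0 to 1 without each mouse. The replicate block changed no other count of members, and the numbers did not pair the mice.

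Ucp1 relative to Adipoq differed by -2.68 to -1.46 in Plod1-/- mice and by 1.59 to 2.45 in WT mice without each mouse in turn, and passed the threshold without saline-treated Plod1-/- replicate 5 and without saline-treated WT replicate 5. The SD of Ucp1 in Ang II-treated WT mice was 0.28 to 1.44 without each mouse.

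The signs that reversed were of members not called in the comparison. For Plod1-/- mice under Ang II, the log2 fold change of Ucp1 was -0.084 with the Xist libraries left out and -0.38 to 1.43 without each mouse in turn. In the same comparison, without each mouse in turn, it was -0.58 to 0.65 for Cox7a1, -0.23 to 1.01 for Cidea, -0.033 to 1.08 for Elovl3 and -0.14 to 0.16 for Ppargc1a, and Cox7a1 was at 0.056 with 0.1 as the pseudocount and at 0.15 with weights per mouse. Between genotypes under Ang II, Dio2 was at -0.021 with quantile normalization, at -0.018 with the Xist libraries left out and at -0.092 to 0.34 without each mouse in turn. Quantile normalization moved the median of all genes from 0.12 to -0.03 between genotypes under Ang II and from 0.12 to -0.01 for the interaction. Absolute depth is unknown here, and counting intervals were not given.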

Other observations

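Marker genes of other cells in the aorta moved in their own ways. All 5 macrophage genes were higher in Plod1-/- than in WT mice under Ang II, with a median log2 fold change of 2.04, and Cd68, a lysosomal protein of macrophages, was at 2.68 (SE 0.63, limma adjusted p = 0.0107). In WT mice under Ang II limma called 0 of 4 tested macrophage genes, 2 of them at an unadjusted p under 0.05, with a median of 0.89. Th and Dbh, the 2 tested of 4 genes of sympathetic neurons, were higher in Plod1-/- mice under Ang II by 3.59 (SE 1.04, adjusted p = 0.0252) and 3.97 (SE 1.23, adjusted p = 0.0318). They reached 1 FPKM in 5 and 6 of the 20 mice, and neither did so in every Ang II-treated Plod1-/- mouse. With the Xist libraries left out 1 of the 4 genes was tested, and it was called higher. Of 8 tested striated muscle genes 3 were called lower in Plod1-/- than in WT mice under Ang II, with a median of -2.04. Under Ang II in WT mice 4 of 7 were called higher. Without the 3 mice that held muscle RNA limma called 0 of 6 and 0 of 4 tested striated muscle genes, with 2 and 0 at an unadjusted p under 0.05 and medians of -0.24 and -0.10.

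The relatives of the members are paralogues and partners on a separate list. Of these, 9 of 13 tested genes were called higher under Ang II in WT mice and 3 of 11 in Plod1-/- mice. Of 5 endothelial genes 2 were called higher under Ang II in each genotype. Of 4 fibroblast genes 1 was called higher in Plod1-/- mice, while in WT mice limma called 0, with 1 at an unadjusted p under 0.05. Of 7 tested white adipocyte genes 1 was called higher in Plod1-/- mice. Between genotypes under saline limma called 0 genes of these lists, and at an unadjusted p under 0.05 there were 2 of 4 tested macrophage genes, 3 of 4 endothelial genes and 2 of 4 fibroblast genes. Without the 3 mice that held muscle RNA limma called 0 of 5 macrophage genes between genotypes under Ang II, 2 of them at an unadjusted p under 0.05, with a median of 1.49. In WT mice under Ang II it then called 0 of 9 tested relatives and 0 of 4 tested endothelial genes, with 7 and 0 at an unadjusted p under 0.05.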
